A study of Mus musculus with 4 samples.

Results

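The genes described here are 3 ligands of the gp130 cytokine family, Il6, Osm and Lif, and 3 of its receptor chains, Il6ra, Il6st and Osmr. They were listed by symbol, and all 6 were found among the 19001 gene symbols listed for all 4 libraries. Each library was a droplet single-cell RNA sequencing library of skin cells taken around a full-thickness wound of C57/BL6j mice of 6 weeks. The wounds were 8 mm wide, and the tissue was taken on day 7. The 2 libraries titled as control (Control 1 and Control 2) form the control group, whose mice had received PBS, the carrier. The 2 libraries titled as hucMSC-Exo (hucMSC-Exo 1 and hucMSC-Exo 2) form the hucMSC-Exosomes group. Its mice had received 100 µg of exosomes of human umbilical cord mesenchymal stem cells every 48 h, at 4 sites around the wound. Whether the titles assign the libraries rightly is taken up below. By the study's text each group was represented by 2 mice, so the spread between the libraries of a group is that between 2 animals, technical spread included.

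Cytokines of this family signal through gp130, the chain encoded by Il6st. IL-6 first binds its own receptor chain, encoded by Il6ra, and the pair then recruits gp130. Oncostatin M, encoded by Osm, signals through gp130 together with the chain encoded by Osmr, and LIF through gp130 together with the chain encoded by Lifr. A soluble form of the IL-6 receptor can pass IL-6 on to cells that carry gp130 but no receptor chain of their own. The JAK kinases and STAT3 act inside the cell, and SOCS3 limits the signal. In skin, IL-6 and oncostatin M are known from inflammation and wound repair, and oncostatin M acts on keratinocytes and fibroblasts.

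After quality control 6443 of 7178 deposited cells were kept, 952 and 2074 of them in the control libraries and 1416 and 2001 in the hucMSC-Exosomes libraries. Where 4 values stand in a row below, they follow this order. These cells held between 4779405 and 11243740 unique molecular identifiers (UMIs, each standing for 1 captured mRNA molecule) per library. The median was between 3747 and 4392.5 UMIs per cell. Cells were assigned to classes by lists of marker genes that held none of the 6 genes, and a class is written as, for example, neutrophil-like. Clusters by expression, named with the same lists, included no osteoclast, conventional or mature dendritic, CD8 and NKT, NK, fibroblast or keratinocyte cluster. A cluster of the same name held 99.6% of neutrophil-like and 95.9% of basophil-like cells, but 59.4% of monocyte-like and 56.7% of CD4 T-like cells. The tissue field of the labels names gut, while the cells held 7140 UMIs of Krt5 and 16868 of Krt14, keratins of the epidermis, against 7 of Vil1 and 0 of Fabp2, markers of the gut lining. Groups were taken from the titles of the libraries, while letters in the names of the deposits would group them otherwise. Neutrophil-like cells numbered 52 and 340 in the control libraries and 91 and 545 in the hucMSC-Exosomes libraries. Control 2 alone thus held more than the study's text counts in its whole control group, so the titles do not match that count. Which grouping is right was not tested. The directions between groups given below rest on the titles alone. If the titles are wrong, they do not compare treated with untreated mice. No endothelial cells were found and only 62 keratinocyte-like and 38 fibroblast-like cells, so that most values describe immune cells. The study's text counts several times more cells per mouse than the deposit holds, and its methods separate immune cells by Ptprc, so all shares of cells here are shares of the deposited cells and not of the tissue. Any 2 libraries shared at most 2 cell barcodes.

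Il6, Osm and Lif were each highest in basophil-like cells. Il6 lies on chromosome 5 (GRCm38, 30013114-30019981, plus strand), and Osm and Lif are neighbours on chromosome 11 (4236420-4241026 and 4257557-4272514, both on the plus strand), 16530 bases apart. Basophils are rare granulocytes known for IL-4 and for proteases such as the one encoded by Mcpt8. The basophil-like class held 98 of the 6443 cells (1.52%), and 87 of the 98 had a UMI of Mcpt8, 1 of the 8 markers that defined the class. The class had 3 cells in Control 1, 57 in Control 2, 19 in hucMSC-Exo 1 and 19 in hucMSC-Exo 2, so Control 1 says little about it.

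No upstream sequence of Osm was available from RefSeq. The 250 bases before the transcription start are therefore shown for the other 2 ligands, Il6 and Lif. By the gene position printed above, which comes from another annotation, the last 11 bases of the Lif window lie within the gene. Both are RefSeq sequences of GRCm38.p6 (chr5:30012864-30013113 and chr11:4257318-4257567, both plus strand), written 5′ to 3′, with matches to the searched motifs in capitals.
Il6 upstream: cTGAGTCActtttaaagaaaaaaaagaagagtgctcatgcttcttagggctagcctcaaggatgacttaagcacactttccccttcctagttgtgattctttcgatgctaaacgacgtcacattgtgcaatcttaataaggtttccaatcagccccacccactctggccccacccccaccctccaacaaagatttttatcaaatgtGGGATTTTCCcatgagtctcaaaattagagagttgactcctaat
Lif upstream: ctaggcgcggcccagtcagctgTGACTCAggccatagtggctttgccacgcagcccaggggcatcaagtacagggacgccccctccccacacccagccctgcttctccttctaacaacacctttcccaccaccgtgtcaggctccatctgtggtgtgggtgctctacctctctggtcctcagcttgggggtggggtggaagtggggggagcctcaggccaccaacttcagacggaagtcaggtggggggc
Both strands were searched for the AP-1 motif TGANTCA, the NF-kB motif GGGNNNTTCC, the STAT motif TTCNNNGAA and the GATA motif AGATAA, and no matches overlapped. In Il6 the capitals mark TGAGTCA, a match to the AP-1 motif 249 to 243 bases before the start, and GGGATTTTCC, a match to the NF-kB motif 44 to 35 bases before it. In Lif they mark TGACTCA, a match to the AP-1 motif 228 to 222 bases before the start. Of 32851 promoters of this length, 6.75% held the AP-1 motif, 4.65% the NF-kB motif, 7.02% the STAT motif and 9.99% the GATA motif. The sequence before Il6st held none of the 4 motifs, and that before Il6ra held 1 match to the GATA motif. The RefSeq window of Osmr lies within the gene as positioned below and is not described. A match describes these letters and does not show that a factor binds there.

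The unit of all levels is CPM, in which the UMI count of a gene is scaled to a common total for every class and library. Il6 reached 6483 CPM in the basophil-like cells of Control 2, 3333 in hucMSC-Exo 1 and 3583 in hucMSC-Exo 2. The exact Poisson 95% intervals, which cover counting error only, ran from 6142 to 6838, 2842 to 3884 and 3107 to 4111 CPM. In Control 1 the 3 basophil-like cells had 0 Il6 UMIs among 12668, which allows a level of up to 237 CPM. An Il6 UMI was found in 57 of 57, 18 of 19 and 16 of 19 basophil-like cells in the other 3 libraries. The median was 18, 7 and 10 Il6 UMIs per basophil-like cell there, and the highest cell held 79.

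The class was small but held most of the Il6 UMIs of the data. Basophil-like cells held 1719 of the 1968 Il6 UMIs of all kept cells (87.3%), with 92.3% in Control 2, 80.4% in hucMSC-Exo 1 and 73.0% in hucMSC-Exo 2. Outside the class the Il6 level was 4.41 CPM in Control 1 (interval 2.73 to 6.73), 10.2 in Control 2 (8.44 to 12.3), 6.24 in hucMSC-Exo 1 (4.46 to 8.50) and 8.34 in hucMSC-Exo 2 (6.56 to 10.4). Among cells outside the class, 5 had at least 4 Il6 UMIs and together held 65 of the 249 outside UMIs. They were 1 mature dendritic-like cell with 25, 2 keratinocyte-like cells with 16 and 4, 1 mast-like cell with 10 and 1 monocyte-like cell with 10 Il6 UMIs. None of them had a UMI of Mcpt8. Of the 8 markers of the basophil-like class, however, the mast-like cell had 4 and each keratinocyte-like cell 2. The mature dendritic-like and the monocyte-like cell had 0. The remaining 6340 cells held 184 Il6 UMIs. For comparison, 3.48% of the Mcpt8 UMIs lay in those 6340 cells and 96.5% in the basophil-like cells. Mcpt8 is a marker that defined the class, so its shares are partly set by the assignment and carry no test.

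**Figure D1:**
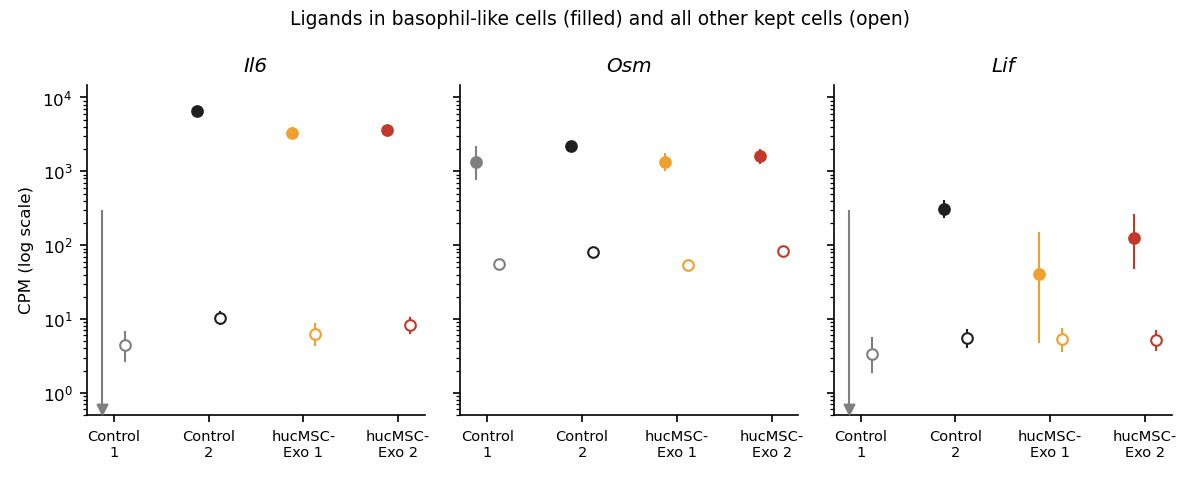
Levels of Il6, Osm and Lif (CPM, log axis) in the basophil-like cells of each library and in all other kept cells, with exact Poisson 95% intervals and an arrow for a count of 0. In Control 2, hucMSC-Exo 1 and hucMSC-Exo 2 the basophil-like level of Il6 lies between 3333 and 6483 CPM, and the level outside the class between 6.24 and 10.2 CPM.

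Osm, the ligand of the receptor with gp130 and the Osmr chain, was present in basophil-like cells of every library. Its level there was 1342 CPM in Control 1, 2187 in Control 2, 1341 in hucMSC-Exo 1 and 1606 in hucMSC-Exo 2. The Control 1 value rests on 17 UMIs in 2 of 3 cells. Basophil-like cells held 630 of the 2875 Osm UMIs (21.9%), so most Osm lay in other classes. Osm was found together with Il6 in 79 of the 98 basophil-like cells.

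Lif was the least frequent of the 3 ligands. Basophil-like cells had 312 CPM of Lif in Control 2, 40.6 in hucMSC-Exo 1 and 124 in hucMSC-Exo 2, from 65, 2 and 7 UMIs, and 0 UMIs in Control 1. The values of the 3 libraries were spread over a wide range, and those of the hucMSC-Exosomes group rest on 9 UMIs in all. The class held 74 of the 231 Lif UMIs (32.0%). All 20 basophil-like cells with a Lif UMI also had Il6.

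Few UMIs of the receptor chains were found in the same cells. Over all 98 basophil-like cells there was 1 UMI of Il6ra, 0 of Il6st and 1 of Osmr. The 1 UMI of Osmr stands for 3.06 CPM, against 1.81 CPM over all kept cells, so Osmr was not lower here. The class held 98 cells, and its Il6st count of 0 means that no gp130 transcript was detectable at this depth. That count allows a level of up to 9.17 CPM.

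The comparison of basophil-like with neutrophil-like cells asked whether the ligand levels of these granulocytes differed within the same library. Il6 was higher in basophil-like cells by 9.17 on the log2 scale (SE 0.37, adjusted p = 1.95e-12) and Osm by 3.52 (SE 0.28, adjusted p = 1.43e-08), in 3 of 3 libraries each. Both were called among 2142 genes tested, of which 52% were called in either direction, 23.2% as higher and 28.7% as lower. The fit was edgeR's quasi-likelihood test on UMI sums per class with the library as a block and Benjamini-Hochberg adjustment. Control 1 was not in the fit because it had fewer than 10 basophil-like cells, and the other 4 members did not pass the filter on low counts. The basophil-like cells were deeper (a median of 3269.5 UMIs per cell against 2109.5), and after each cell was thinned to 1000 UMIs 85.7% of the basophil-like cells still had a UMI of Il6, 63.3% of Osm and 15.3% of Lif.

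Mast-like cells, the other granule-rich class known for IgE receptors, had the next highest mean level of Osm and Lif after basophil-like cells. Over 36 mast-like cells there were 17 UMIs of Il6, 11 of Osm and 6 of Lif. Of the Il6 UMIs 15 lay in Control 2, and 10 of those in 1 cell. The Il6 level of mast-like cells was 712 CPM in Control 2 and 83.2 CPM in hucMSC-Exo 2, beside 367 CPM in the keratinocyte-like cells of hucMSC-Exo 1 and 286 CPM in those of hucMSC-Exo 2, where 1 cell in each library held all of the Il6 UMIs of that class. The place after basophil-like cells in the order of Il6 was therefore not fixed. Ranges were counted over the libraries with at least 10 cells of the class. The range of Il6 in basophil-like cells lay apart from that in mast-like cells. For Osm the ranges of basophil-like, mast-like and neutrophil-like cells lay apart in that order. The mast-like range of Osm rests on 7 UMIs in 15 cells of Control 2 and 3 UMIs in 10 cells of hucMSC-Exo 2. There was 1 Osm UMI in 5 mast-like cells of Control 1 and 0 in 6 of hucMSC-Exo 1, so the place of this class is uncertain. For Lif no such gap was found between basophil-like and mast-like cells.

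The genes most alike to Il6 over 51 sums of class and library (log2 of CPM + 10, Pearson's r) were Gata2 (0.887), Slc18a2 (0.807) and Cyp11a1 (0.774). For Lif they were Il4 (0.831), Cyp11a1 (0.796) and Hgf (0.792). Gata2 and Cyp11a1 are markers that defined the basophil-like class, and sums of 1 library share their depth, so these values are a description and carry no test. For Osm the most alike genes were Lilrb4a (0.922), Emilin2 (0.917) and Itgam (0.914), genes of myeloid cells.

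Outside basophil-like and mast-like cells, Osm was found in neutrophil-like and mononuclear phagocyte-like cells and was low in T cells. In neutrophil-like cells it was 163 CPM in Control 1, 191 in Control 2, 190.1 in hucMSC-Exo 1 and 144 in hucMSC-Exo 2 (172 ± 22.7, SD, n = 4). In monocyte-like cells it was 123, 179.6, 128 and 253 CPM (171 ± 60.7), and in macrophage-like cells 135, 137, 90.9 and 113 CPM (119 ± 21.7). Neighbours in this order overlapped between libraries. T cells, counted over 5 T cell-like classes, had 3.55, 5.83, 4.61 and 3.71 CPM. All 4 T cell values lay below those of these 3 myeloid classes. The mean of Osm was lower in osteoclast-like and conventional dendritic-like cells, but their values overlapped with those of macrophage-like cells. Their lowest values were 65.2 CPM in the osteoclast-like cells of Control 2 and 26.8 CPM in the conventional dendritic-like cells of Control 1.

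A UMI of Osm was found in 48.4% of monocyte-like, 37.0% of macrophage-like and 21.2% of neutrophil-like cells, and in 1.5% of T cells. The median depths of these classes were 6883, 7090, 2109.5 and 3962.5 UMIs per cell. With each cell thinned to 1000 UMIs the shares became 14.9%, 11.1%, 11.6% and 0.5%. The order of macrophage-like and neutrophil-like cells turned with the depth, and T cells stayed lowest.

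**Figure D2:**
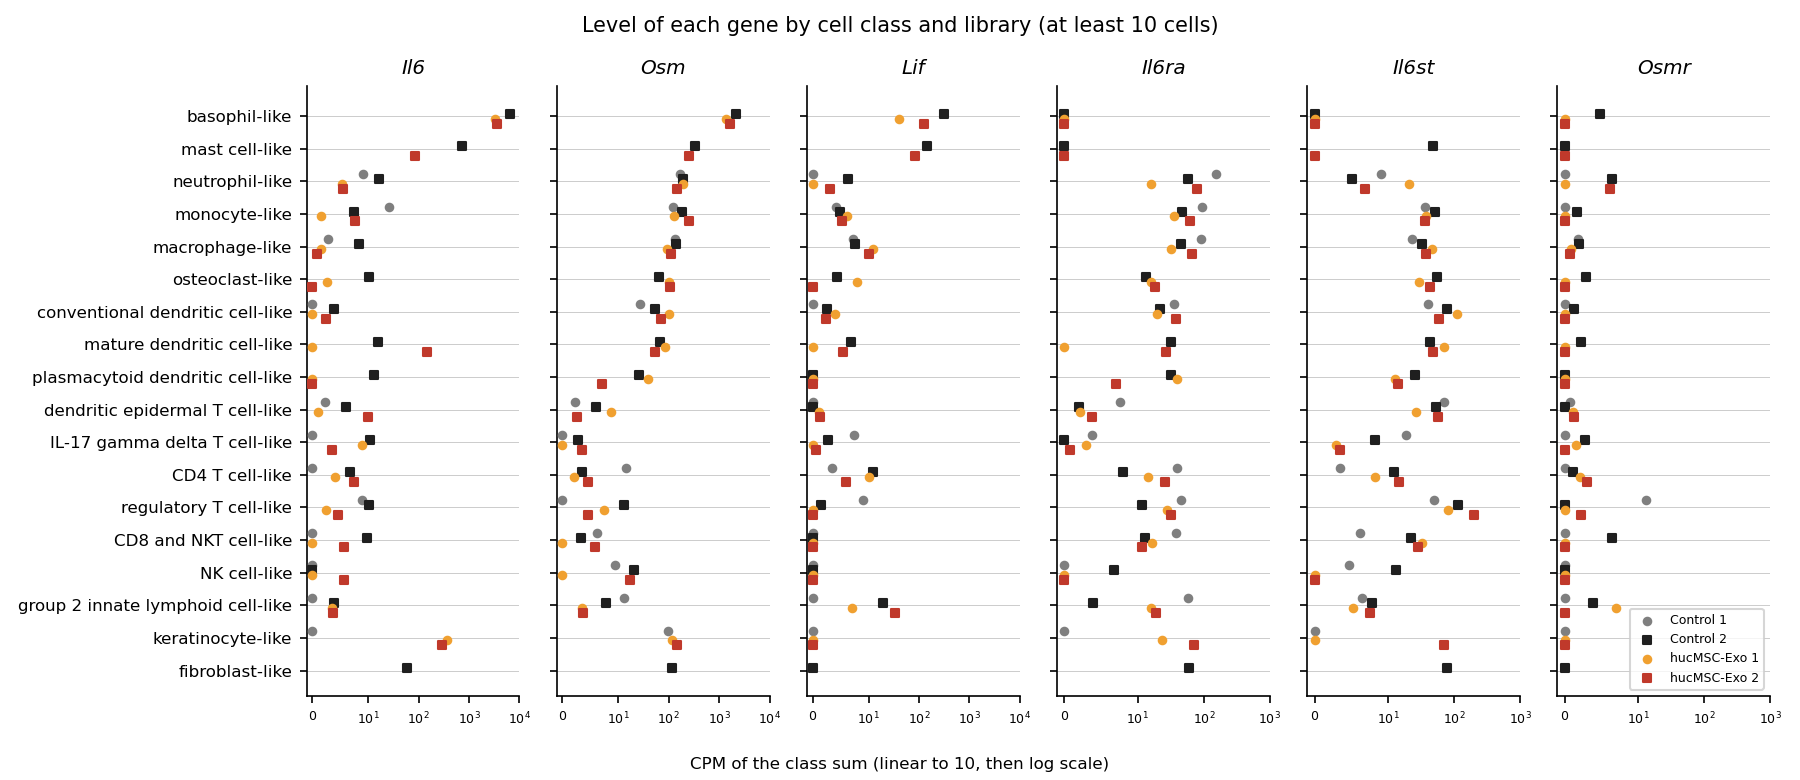
Levels of the 6 genes (CPM, linear up to 10 and logarithmic above) by marker-gated class, with 1 point per library with at least 10 cells of the class. Il6 and Osm stand highest in the basophil-like class with means of 4466 and 1711 CPM over 3 libraries, Il6ra in neutrophil-like, monocyte-like and macrophage-like cells, and Il6st in regulatory T-like and conventional dendritic-like cells.

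The myeloid classes and T cells were then compared within libraries to ask which of them carried each ligand and receptor. Against T cells, neutrophil-like cells had a higher level of Osm by 5.86 on the log2 scale (SE 0.31, edgeR adjusted p = 3.77e-24), and mononuclear phagocyte-like cells (macrophage-like, osteoclast-like and monocyte-like together) were the higher in the comparison of T cells with them, where Osm differed by -5.27 (SE 0.22, adjusted p = 5.41e-08). Of the genes tested 58% were called in the first comparison (25.7% as higher in neutrophil-like cells, 32.4% as lower) and 60.5% in the second (29.9% as higher in T cells, 30.5% as lower), so that a call alone sets no gene apart there. Osm was higher in neutrophil-like than in mononuclear phagocyte-like cells by 0.65 (SE 0.22, adjusted p = 0.0144), in 3 of 4 libraries by CPM. Here 54.9% of genes were called, 25.6% as higher in neutrophil-like cells and 29.3% as lower. This call was lost without Control 2 (0.44, adjusted p = 0.215), without hucMSC-Exo 1 (0.50, adjusted p = 0.0798) and in DESeq2 (0.56, adjusted p = 0.0994). In this comparison the median of all genes was -0.17 and against T cells -0.30, with a lower UMI depth in neutrophil-like cells, and the part of depth in these values was not tested.

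Osm was also higher in monocyte-like than in macrophage-like cells by 0.59 (SE 0.18, edgeR adjusted p = 0.0226), where 26.6% of genes were called. By CPM this held in 3 of 4 libraries, with 123 against 135 CPM in Control 1. The call was lost without Control 2 (adjusted p = 0.0668), hucMSC-Exo 1 (0.0502) or hucMSC-Exo 2 (0.227). The difference without hucMSC-Exo 2 was 0.32 against 0.59 with it.

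Il6 and Lif were sparse in these classes. Il6 was called higher in neutrophil-like than in mononuclear phagocyte-like cells (1.20, SE 0.47, edgeR adjusted p = 0.0330) on 22 against 67 UMIs, but 7 of 9 alternative settings did not call it. Against T cells Il6 was higher by 1.32 (SE 0.50, adjusted p = 0.0214), a call made in 5 of 9 alternatives. The CPM of Il6 in neutrophil-like cells was 9.07, 16.7, 5.28 and 5.40 in the 4 libraries, against 2.22, 8.32, 3.84 and 5.99 in T cells, and the higher values of both lay in Control 2, where basophil-like cells were most frequent. Whether free RNA of those cells gave these counts was not tested. Lif was lower in T cells than in mononuclear phagocyte-like cells by -1.81 (SE 0.34, adjusted p = 0.0012), with 2.22, 3.88, 2.30 and 1.71 against 6.25, 6.37, 9.81 and 7.22 CPM, so that the classes did not overlap. This call held in 12 of 12 alternatives.

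Il6ra, the chain that binds IL-6, lies on chromosome 3 (89864059-89913196, minus strand) and was found mostly in myeloid cells. Mononuclear phagocyte-like cells held 57.3% of its 984 UMIs and neutrophil-like cells 17.0%. In neutrophil-like cells its level was 154 CPM in Control 1, 57.8 in Control 2, 15.8 in hucMSC-Exo 1 and 78.7 in hucMSC-Exo 2, from 17, 45, 3 and 102 UMIs. Monocyte-like cells had 93.3, 47.4, 35.8 and 62.8 CPM (59.8 ± 24.9, SD, n = 4), and macrophage-like cells 91.5, 44.4, 31.9 and 66.9 (58.7 ± 26.2). In each of these 3 classes Control 1 was the highest library and hucMSC-Exo 1 the lowest, and the classes overlapped.

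T cells had 16.9, 5.83, 9.21 and 10.5 CPM of Il6ra, and Control 1 was again the highest library. Within them regulatory T-like cells had 44.7, 11.6, 27.3 and 31.6 CPM. Dendritic epidermal T-like cells, the resident γδ T cells of mouse epidermis, had 7.58, 2.01, 2.15 and 3.78 CPM, from 17 UMIs in all.

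Il6ra differed between T cells and mononuclear phagocyte-like cells by -2.73 on the log2 scale (SE 0.19, edgeR adjusted p = 9.65e-07) and between neutrophil-like and T cells by 3.40 (SE 0.32, adjusted p = 9.09e-14), and both calls held in 12 of 12 alternatives. Neutrophil-like cells were higher than mononuclear phagocyte-like cells by 0.73 (SE 0.25, adjusted p = 0.0125). By CPM this was so in 3 of 4 libraries. It was lost without Control 2 (0.50, adjusted p = 0.218), without hucMSC-Exo 2 (0.64, adjusted p = 0.158) and in DESeq2 (adjusted p = 0.118). Between monocyte-like and macrophage-like cells the difference was 0.10 (SE 0.15, adjusted p = 0.657). The share of cells with an Il6ra UMI was 14.3% of neutrophil-like, 27.5% of monocyte-like and 25.8% of macrophage-like cells against 1.3% of dendritic epidermal T-like cells, and 6.5%, 4.3%, 5.8% and 0.4% after thinning.

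Il6st, which encodes gp130, lies on chromosome 13 (112464070-112510086, plus strand) and had another distribution than Il6ra. Its highest mean was in regulatory T-like cells, with 49.2 CPM in Control 1, 114 in Control 2, 82.0 in hucMSC-Exo 1 and 199 in hucMSC-Exo 2 (111 ± 64.3, SD, n = 4). Conventional dendritic-like cells had 40.2, 77.5, 110.4 and 59.6 CPM (71.9 ± 29.8), and dendritic epidermal T-like cells 71.3, 54.3, 26.9 and 57.9 (52.6 ± 18.6). Of the classes with at least 20 cells, regulatory T-like cells ranked first in Control 2 and hucMSC-Exo 2 and at position 2 in the other libraries, and no neighbours in the order of classes lay apart. The share of regulatory T-like cells with an Il6st UMI was 17.8%, 40%, 25% and 46.9% in the 4 libraries, and over all libraries 35.2%, or 12.2% after thinning.

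Other T cell-like classes had lower means of Il6st. CD8 and NKT-like cells had 6.26, 22.7, 33.1 and 28.7 CPM, from 17 UMIs. CD4 T-like cells had 3.52, 12.5, 8.28 and 14.9 CPM of Il6st, and IL-17-producing γδ T-like cells 18.6, 8.18, 2.98 and 3.50. The comparison of CD4 T-like with dendritic epidermal T-like cells asked whether these 2 classes differ in gp130. It gave -2.05 on the log2 scale (SE 0.30, edgeR adjusted p = 5.05e-05), with 39.7% of genes called. The CPM values did not overlap, and the call held in 12 of 12 alternatives. A UMI of Il6st was found in 4.5% of CD4 T-like and 16.9% of dendritic epidermal T-like cells, and in 1.4% and 5.9% after thinning.

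Neutrophil-like cells had the reverse of their Il6ra pattern. Their Il6st level was 9.07, 5.13, 21.1 and 6.94 CPM from 18 UMIs in 1028 cells, against 26.9, 41.8, 41.0 and 37.5 CPM in mononuclear phagocyte-like cells and 49.7, 43.3, 26.1 and 43.9 CPM in T cells. Il6st was lower in neutrophil-like cells by -1.81 against mononuclear phagocyte-like cells (SE 0.38, edgeR adjusted p = 1.73e-04) and by -1.69 against T cells (SE 0.41, adjusted p = 4.57e-04). Both calls held in 12 of 12 alternatives. Between T cells and mononuclear phagocyte-like cells Il6st differed by -0.22 (SE 0.22, adjusted p = 0.408), and its direction turned in 3 of 12 alternatives.

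**Figure D3:**
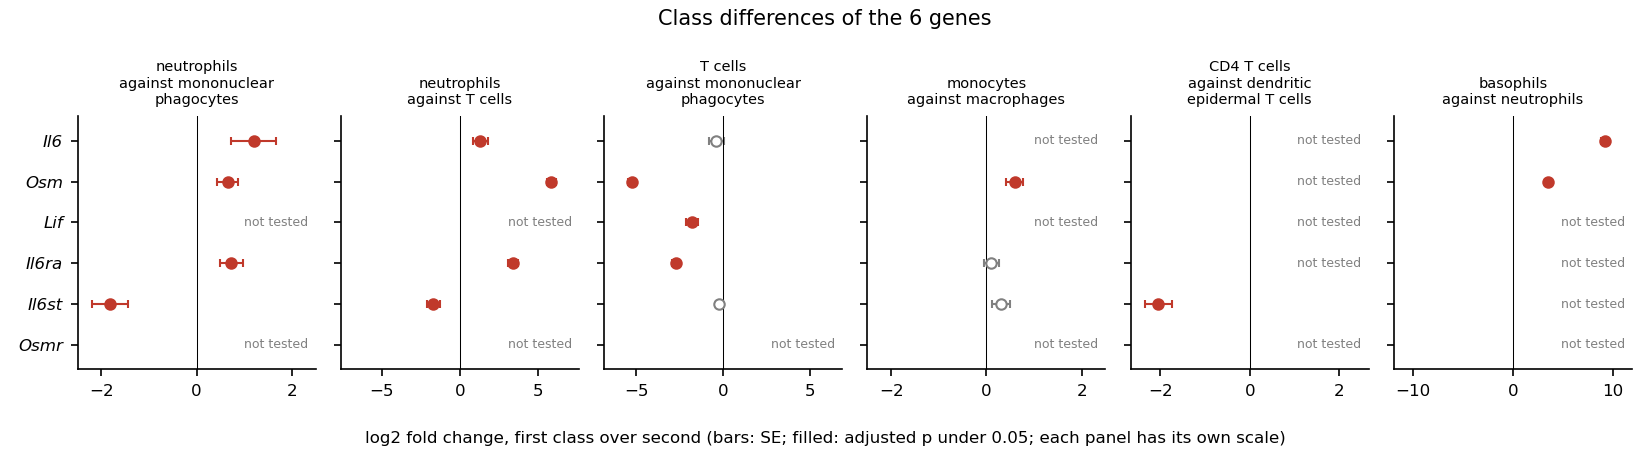
Log2 differences of the members between classes within libraries, from the edgeR fit, with bars of 1 SE and filled points where the adjusted p was under 0.05; each panel has its own scale. Osm and Il6ra lie to the right for neutrophil-like cells against T cells (5.86 and 3.40), and Il6st lies to the left for neutrophil-like cells against both other classes (-1.81 and -1.69).

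Il6ra and Il6st, the chains that together make the complete IL-6 receptor, were found together in few cells. Each alone was also sparse, with 984 UMIs of Il6ra and 1142 of Il6st over all kept cells. Whether they met more or less often than their single shares would give was not tested. Both had a UMI in 2 of 1028 neutrophil-like cells (0.195%), 79 of 1586 mononuclear phagocyte-like cells (4.98%), 18 of 358 regulatory T-like cells (5.03%) and 15 of 157 conventional dendritic-like cells (9.55%). Over all kept cells they were found together in 135 of 6443 (2.10%). These shares depend on depth, since most cells with either transcript had only a few UMIs of it, and a missing UMI does not show that the gene was silent.

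**Figure D4:**
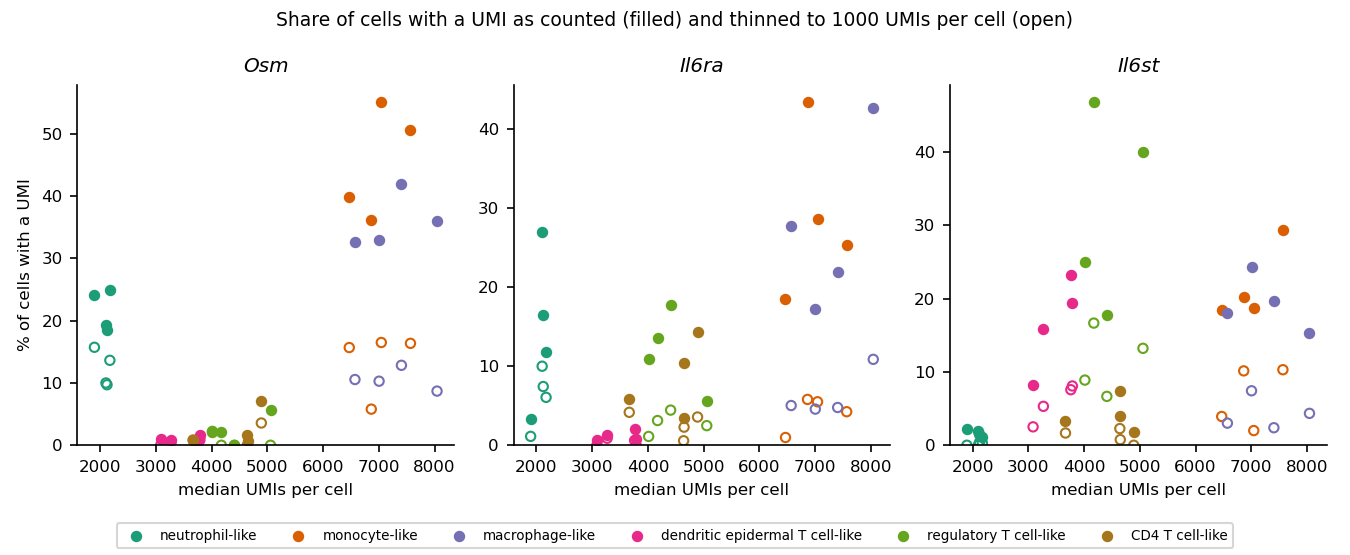
Share of cells with a UMI of Osm, Il6ra or Il6st (percent) against the median UMIs per cell, with 1 point per class and library as counted (filled) and after thinning of each cell to 1000 UMIs (open). Over all libraries Osm falls from 48.4% to 14.9% in monocyte-like cells and from 21.2% to 11.6% in neutrophil-like cells.

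Osmr, the chain that gives oncostatin M its own receptor, lies on chromosome 15 (6813577-6874969, minus strand) and was close to the limit of detection. There were 57 Osmr UMIs in all kept cells, or 1.26, 2.58, 1.24 and 1.55 CPM in the 4 libraries. Keratinocyte-like cells held 6 of them, in 3 of the 9 such cells of Control 2 and in none of the other libraries. Neutrophil-like cells held 13. No neighbours in the order of Osmr levels over classes lay apart between libraries, and in each class comparison Osmr did not pass the filter on low counts. Its most alike genes reached an r of 0.451 at most (Itsn2).

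For the receptors the genes most alike were Ly6i (0.733), Il13ra1 (0.732) and Slfn5 (0.706) for Il6ra, and Cep85l (0.778), Dbndd2 (0.709) and Phlpp1 (0.685) for Il6st, again as descriptions without a test.

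The other genes of the pathway were taken from lists of 52 genes in all, grouped by function and including the 6 members. Lifr, the chain for LIF, was highest in plasmacytoid dendritic-like cells with 101 ± 26.2 CPM (SD, n = 3) and was 38.0 ± 13.5 CPM in macrophage-like cells (n = 4). It was lower in T cells than in mononuclear phagocyte-like cells by -4.31 (edgeR adjusted p = 3.5e-06) and in neutrophil-like cells than in mononuclear phagocyte-like cells by -2.62 (adjusted p = 1.3e-05). Il31ra, which pairs with Osmr to bind IL-31, had 14 UMIs in all cells. Of the other ligands, Clcf1 was highest in dendritic epidermal T-like cells (62.7 ± 7.5 CPM, n = 4) and was lower in CD4 T-like cells by -1.44 (adjusted p = 0.0002). Ebi3, a chain of IL-27, was highest in neutrophil-like cells (67.8 ± 45.9 CPM, n = 4) and differed from mononuclear phagocyte-like cells by 1.80 (SE 0.27).

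The genes that act inside the cell were compared between the same classes. In neutrophil-like against mononuclear phagocyte-like cells, 17 of the 39 listed genes tested were called higher and 7 lower, with a median of 0.52 against -0.17 for all genes. For the STAT3 response genes these counts were 8 and 2 of 14 tested, led by Lrg1 (6.77), Il1r2 (4.13) and Cebpd (2.59). Stat3 itself was higher by 0.93 and Jak2 by 1.09, both called, and Jak1 by 0.73, while Socs3 at 0.48 was not called (edgeR adjusted p = 0.0558). Lrg1 and Il1r2 are also known as genes of mature neutrophils.

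Against T cells 20 of 39 were called higher in neutrophil-like cells and 8 lower, and among the STAT3 response genes 10 and 0 of 13, with Lrg1 at 9.22 and Il1r2 at 5.53. In T cells against mononuclear phagocyte-like cells the counts were 10 higher and 21 lower of 41, with Cebpb at -2.93, Mcl1 at -2.56 and Socs3 at -1.53. In monocyte-like against macrophage-like cells 11 were higher and 1 lower of 37, among them Il1r2 (1.22), Ier3 (0.64) and Cebpb (0.53). CD4 T-like against dendritic epidermal T-like cells gave 15 higher and 14 lower of 32, with Pim1 at 2.39, Il1r2 at 4.16 and Cish, an inhibitor of STAT signals, at 2.18. Basophil-like against neutrophil-like cells gave 7 higher and 8 lower of 21, with Il1r2 at -4.33. The shares of listed genes called are to be read against the 54.9%, 58%, 60.5%, 26.6%, 39.7% and 52% of all genes called in these comparisons. In the same order, 25.6%, 25.7%, 29.9%, 13.2%, 18.5% and 23.2% of all genes were called higher. The shares called lower were 29.3%, 32.4%, 30.5%, 13.4%, 21.3% and 28.7%.

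The comparison the study was built for is that of the hucMSC-Exosomes group with the control group. With the groups of the titles, which do not match the study's neutrophil count, it gave no call for any member. A comparison with another grouping was not made, so this result does not settle the effect of the exosomes. In all kept cells Il6 was 4.39 and 130.3 CPM in the control libraries and 31.6 and 30.7 CPM in the hucMSC-Exosomes libraries. The control libraries lay on either side of the others, and they were also the libraries with the lowest and the highest share of basophil-like cells, at 0.315% and 2.75% of cells against 1.34% and 0.95%. In such sums fewer cells of a type and less RNA per cell cannot be told apart. Outside basophil-like cells the difference between the control libraries was that between 4.41 and 10.2 CPM.

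Osm was 58.8 and 119 CPM in the control libraries against 63.5 and 93.9 in the hucMSC-Exosomes libraries, and Lif 3.35 and 11.2 against 5.57 and 5.85 CPM. Il6ra was 47.3 and 26.2 against 18.3 and 38.1 CPM, Il6st 35.8 and 40.4 against 31.9 and 34.4, and Osmr 1.26 and 2.58 against 1.24 and 1.55. The groups of the titles overlapped for each of these except Il6st, where both control libraries were higher than both others, in a comparison in which 0% of all genes were called.

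For all kept cells the log2 differences of hucMSC-Exosomes minus control were -1.14 for Il6 (SE 1.26), -0.13 for Osm (SE 0.44), -0.37 for Lif (SE 0.61), -0.27 for Il6ra (SE 0.42), -0.13 for Il6st (SE 0.22) and -0.47 for Osmr (SE 0.58), each with an edgeR adjusted p of 0.9999. Of the 12104 genes tested 0% were called, with 183 at an unadjusted p under 0.05, and DESeq2 called 0 as well. With SEs of this size, differences of the order of those between the libraries of 1 group were not detectable. Without Control 2 the difference of Il6 turned to 3.00 (adjusted p = 0.331).

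Within classes no member was called either. In neutrophil-like cells Osm differed by -0.03 (SE 0.39) and Il6ra by -0.58 (SE 0.58), and the other members did not pass the filter. In T cells Il6st differed by -0.30 (SE 0.28), Il6 by -0.10, Osm by -0.15 and Il6ra by -0.02. In mononuclear phagocyte-like cells Osm differed by 0.10 (SE 0.31), Lif by 0.49 (SE 0.44), Il6ra by -0.43 (SE 0.44) and Il6st by 0.23 (SE 0.31). None was called by edgeR, with adjusted p of 0.9991 or more. Of 4074, 10113 and 8828 genes tested, 0% were called in each class, against 78, 250 and 100 at an unadjusted p under 0.05.

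The lowest unadjusted p of a member was that of Il6 in mononuclear phagocyte-like cells, at -1.52 on the log2 scale (SE 0.52, unadjusted p = 0.0188, edgeR adjusted p = 0.9996). The level was 9.37 and 8.41 CPM in the control libraries and 1.78 and 3.97 CPM in the hucMSC-Exosomes libraries, from 15, 37, 4 and 11 UMIs. The difference did not pass the adjustment over 8828 genes. Of the 15 UMIs in Control 1, 10 lay in 1 monocyte-like cell, and without it, a setting chosen after seeing the data, that library had 3.15 CPM and the groups overlapped. Basophil-like cells could not be tested between groups, since only 1 control library had enough of them. There the Il6 level was 6483 CPM in Control 2 against 3333 and 3583 CPM, Osm 2187 against 1341 and 1606, and Lif 312 against 40.6 and 124, and a single library gives no spread to set these differences against.

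**Figure D5:**
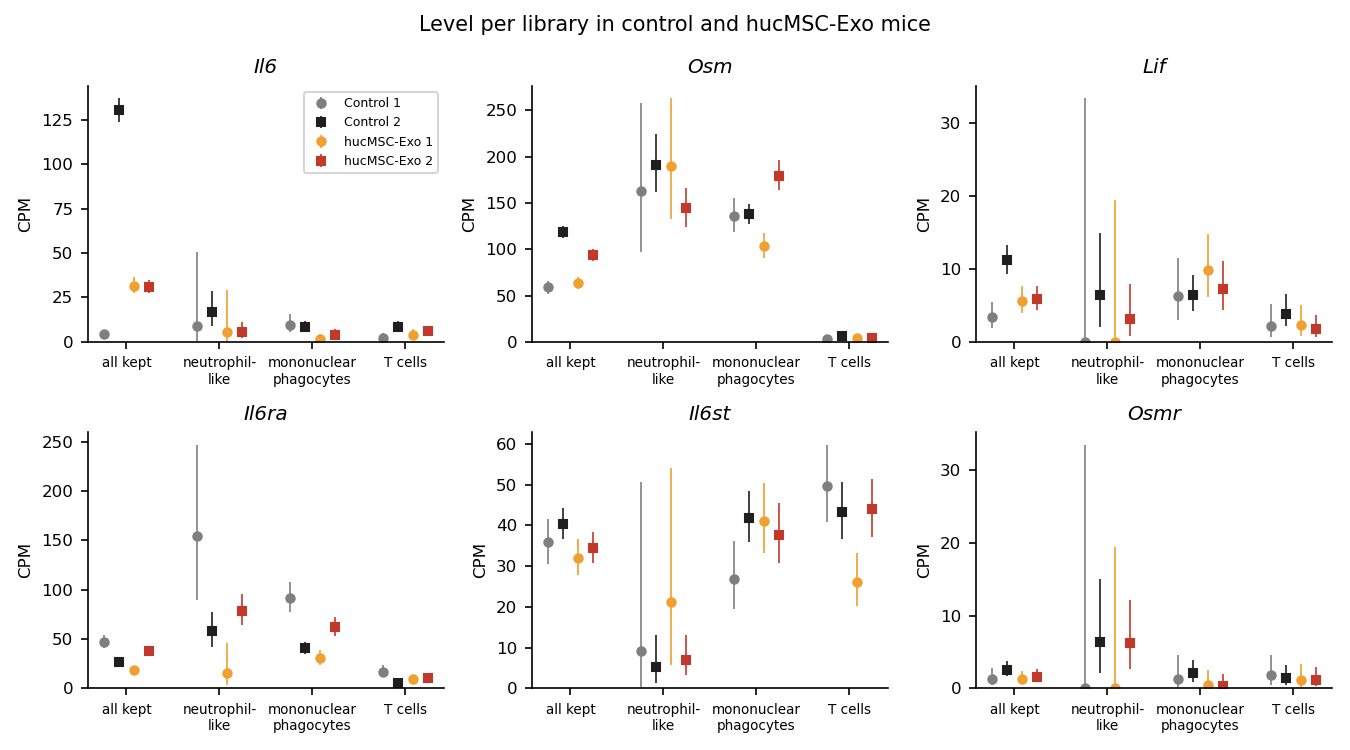
Levels of the 6 genes (CPM, axes from 0) in the control and hucMSC-Exosomes libraries, for all kept cells, neutrophil-like cells, mononuclear phagocyte-like cells and T cells, with exact Poisson 95% intervals. Groups follow the titles of the libraries. The Il6 level of all kept cells spans 4.39 to 130.3 CPM within the control group, wider than the distance of its mean from the hucMSC-Exosomes libraries at 30.7 and 31.6 CPM.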

How the data were processed

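Skin single-cell suspensions were sequenced with 10x 3′ v3.1 chemistry. The deposited values are unnormalized UMI counts that the authors made with Cell Ranger 6.1.2 and mm10, as per the labels. The study's limits of 200 to 3000 genes and 10% mitochondrial UMIs left 952 to 2074 cells per library. Each cell went to the marker list, of 21, with the highest mean standardized level, given at least 3 detected markers. Non-immune lists were open only to cells without a Ptprc UMI, and 228 cells stayed unassigned. UMIs were summed per class and library (at least 10 cells) and tested with edgeR 4.0.16 (TMM, filterByExpr, quasi-likelihood, Benjamini-Hochberg over all genes tested, called at 0.05), in R 4.3.3, with the library as a block between classes. Levels are CPM with exact Poisson 95% intervals, shares have Clopper-Pearson intervals, and a floor of 3 counts was used at 0. Neither covers more than counting error. Coordinates come from GENCODE and upstream sequences from RefSeq, where 5 of the 6 genes matched. The symbol Il31 was not among those listed. On simulated data edgeR recovered 174 of 200 changed genes between groups in neutrophil-like cells (3926 genes) and 200 of 200 between classes (7448 genes). The changed genes had a median log2 difference of 2.03 and 1.99, none was of low count, and the spread between simulated libraries was fixed. Recovery of smaller differences, of sparse genes or at a wider spread was not tested. Alternatives were RLE scaling, DESeq2 1.42.0, no filter on low counts, all deposited cells, Leiden clusters (scanpy 1.11.5), removal of doublets, each library left out, and blocks. Scrublet marked 30 of 6443 cells (0.466%), too few to count as working, so leaving out the 599 cells with the highest scores was added after seeing the data. The members and lists were chosen with earlier results of these data known. Genes were named by rule: the 6 members, 8 fixed pathway genes, the 3 listed genes with the smallest adjusted p per comparison, and the 3 genes most alike to each member.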

Additional observations from a re-analysis of the deposited data

How the results depend on the processing

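Counts and differences of the groups below are hucMSC-Exosomes minus control, on the log2 scale. Of the alternative values for the members, 379 kept their direction and side of the threshold, 25 lost their call, 33 turned in direction and 9 shares moved beyond their spread. The calls of Il6st, of Osm and Il6ra against T cells, of Lif and of the basophil-like cells held in each alternative run, and those of Osm, Il6ra and Il6 for neutrophil-like against mononuclear phagocyte-like cells, of Il6 for neutrophil-like against T cells and of Osm in monocyte-like cells did not. The counts of genes called between groups rose from 0 without a filter on low counts to 6 in neutrophil-like, 36 in mononuclear phagocyte-like and 47 in T cells, and with a replicate block to 4 in neutrophil-like cells. With each library left out they ran from 0 to 16, 0 to 158 (without Control 2) and 0 to 302 (without Control 2). For monocyte-like against macrophage-like cells 1875 genes were called, against 1067 in DESeq2, 798 without the library block and 1118 to 2044 with each library left out. For basophil-like against neutrophil-like cells 1113 were called, and 679 (without Control 2) to 1434 with a library left out.

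The replicate numbers are shared by the groups, with nothing in the labels to pair them. The deviations of Control 1 and hucMSC-Exo 1 correlated at 0.183 over 12104 genes. With the replicate block the difference of Il6 turned to 0.10 in all kept cells and 0.016 in T cells, and that of Il6ra to 0.065 in T cells, none of them called. With all deposited cells Osmr in all kept cells turned to 0.16, Osm in neutrophil-like cells to 0.20, Lif in mononuclear phagocyte-like cells to -0.075, Il6ra in T cells to 0.0068, and Il6st in T cells against mononuclear phagocyte-like cells to 0.10. With Leiden clusters Osm in neutrophil-like cells turned to 0.025, Il6st in mononuclear phagocyte-like cells to -0.17, Il6 in T cells to 0.053, and Il6st in T cells against mononuclear phagocyte-like cells to 0.24. Without the cells of highest doublet score Osm in neutrophil-like cells was 0.021. With each library left out, Il6 in all kept cells ran from -2.09 to 3.00, Osm from -0.62 to 0.60, Lif from -0.995 to 0.951, Il6ra from -0.89 to 0.16 and Il6st from -0.31 to 0.071. In neutrophil-like cells Osm ran from -0.27 to 0.38. In mononuclear phagocyte-like cells Osm ran from -0.27 to 0.40, Il6ra from -0.96 to 0.26 and Il6st from -0.013 to 0.62. In T cells Il6 ran from -0.72 to 1.34, Osm from -0.49 to 0.39, Il6ra from -0.58 to 0.77 and Il6st from -0.76 to 0.040. In T cells against mononuclear phagocyte-like cells Il6 ran from -0.65 to 0.056 and Il6st from -0.40 to 0.044. The cause of these turns was not tested, and none of these differences was called with all libraries. The main limits are groups that rest on the titles, 2 libraries a group, the 3 basophil-like cells of Control 1, and members with few UMIs, above all Osmr and Lif.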

Other observations

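The 531 cells that were left out for more than 3000 detected genes also held the members. Their levels were 8.40 CPM for Il6, 48.3 for Osm, 12.6 for Lif, 23.7 for Il6ra, 30.6 for Il6st and 4.05 for Osmr, against 62.4, 91.2, 7.33, 31.2, 36.2 and 1.81 CPM over the kept cells. Lif and Osmr were thus higher and Il6 and Osm lower in the cells left out, as values over all libraries with no test. In each single library Lif was higher and Osm lower. Il6 was not lower in hucMSC-Exo 2, at 32.4 CPM against 30.7 in the kept cells. Its widest gap lay in Control 2, at 6.49 against 130.3 CPM. Osmr was not higher in Control 1, at 1.11 against 1.26 CPM. By library, Osmr in the cells left out for genes was 1.11 and 3.25 CPM in the control libraries (2 and 18 UMIs) and 4.23 and 12.6 CPM in the hucMSC-Exosomes libraries (7 and 14 UMIs).

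Most of the other ligands of the family examined here were sparse. Over all kept cells there were 10 UMIs of Il11, 18 of Cntf, 2 of Ctf1, 0 of Ctf2 and 23 of Il27, against 742 of Clcf1 and 455 of Ebi3. Il27ra, the receptor chain for IL-27, was highest in regulatory T-like cells (39.9 ± 15.6 CPM, SD, n = 4) and IL-17-producing γδ T-like cells (38.5 ± 14.3 CPM, n = 4). Il11ra1 was highest in osteoclast-like cells (40.8 ± 19.6 CPM, n = 3). These genes were named after their values were seen.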
